A study of Mus musculus with 8 samples.

Results

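The data described here follow mature miRNAs through 3 days of differentiation in C2C12 cells in which PERK was knocked down. C2C12 is a line of mouse skeletal myoblasts that withdraw from the cell cycle and fuse into myotubes when serum is lowered. The knockdown cells (shPerk) were a stable lentiviral line, a puromycin-selected pool that expressed a short hairpin RNA of 1 sequence against Perk, and the control cells (shNC) carried a negative control hairpin in the same way. Small RNA was sequenced from each line in growth medium with fetal bovine serum before induction (day 0) and in differentiation medium with horse serum (day 3), with 1 library per condition. The 2 shPerk libraries form the comparison, and the 2 shNC libraries of the same days stand beside it. Both lines went through lentiviral transduction and drug selection, but as separate lines. Effects particular to 1 line cannot be told apart from those of the knockdown. With single libraries, none of the differences below can be set against the spread of replicates.

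The members were chosen by their level alone. Of 1978 mature miRNA names in the deposited count tables, 573 had at least 1 CPM (reads of a miRNA per 1e6 miRNA reads of its library) in at least 1 of the 2 shPerk libraries. The last members inside this limit were miR-6933-5p, with 9 and 7 reads at day 0 and day 3, and miR-3473f, with 9 and 3 reads. The first names outside it were miR-3099-3p and miR-33-3p, both with 6 and 9 reads. The shPerk libraries held 8800977 reads at day 0 and 9428246 reads at day 3, and the shNC libraries 11321915 and 11993448 reads. These totals are sums over names. Because 33 members had the same counts as another member in all 4 libraries, some reads can have entered the totals more than once. miR-21a-5p alone took 22.1% and 21.1% of the shPerk libraries. Small RNA libraries hold no Perk mRNA, and the knockdown was therefore not checked here.

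miRNAs are processed from hairpin precursors, each of which can yield a mature strand from its 5′ arm (5p) and from its 3′ arm (3p). A loaded strand finds target mRNAs mainly through its seed, the stretch that begins at the second base of the mature strand, so miRNAs with one seed share many targets. In skeletal muscle, miR-1, miR-206, miR-133a and miR-133b are switched on by myogenic transcription factors such as MyoD and MEF2 as myoblasts differentiate, while clusters such as miR-17-92 are known for high levels in dividing cells. PERK is a kinase of the endoplasmic reticulum that starts 1 branch of the unfolded protein response by phosphorylating eIF2alpha.

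The mature sequences of the miRNAs that the results turn on are given here from RefSeq (GRCm38.p6), which held a sequence for 469 of the 573 members. Bases 2 to 8, the seed, are in capitals, and sequences with a shared seed stand together. The first set rose during differentiation of the knockdown cells and includes relatives with the same seed that were not called.
miR-206-3p: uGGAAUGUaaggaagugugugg
miR-133b-3p: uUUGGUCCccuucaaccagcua
miR-499-5p: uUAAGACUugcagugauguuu
miR-132-3p: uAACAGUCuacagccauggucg
miR-218-5p: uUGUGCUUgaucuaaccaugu
miR-148a-3p: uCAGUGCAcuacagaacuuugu
miR-148b-3p: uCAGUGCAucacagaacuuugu
miR-152-3p: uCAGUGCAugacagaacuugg
miR-99a-5p: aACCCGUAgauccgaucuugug
miR-100-5p: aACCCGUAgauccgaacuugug
miR-99b-5p: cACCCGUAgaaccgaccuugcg
miR-455-5p: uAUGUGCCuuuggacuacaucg
miR-881-3p: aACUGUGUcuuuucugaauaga

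The next set fell, again with relatives of the same seed, and is shown because several miRNAs of 1 seed fell together.
miR-17-5p: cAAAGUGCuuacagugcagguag
miR-20a-5p: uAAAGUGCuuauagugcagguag
miR-93-5p: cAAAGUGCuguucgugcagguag
miR-106b-5p: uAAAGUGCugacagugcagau
miR-92a-3p: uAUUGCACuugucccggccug
miR-25-3p: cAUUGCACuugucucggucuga
miR-221-3p: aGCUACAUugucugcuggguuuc
miR-222-3p: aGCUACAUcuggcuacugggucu
miR-7a-5p: uGGAAGACuagugauuuuguugu
miR-7b-5p: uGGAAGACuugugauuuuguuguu
miR-34b-5p: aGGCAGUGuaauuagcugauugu
miR-449a-5p: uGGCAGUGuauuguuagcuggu

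In PERK knockdown cells, the 7 tested muscle miRNAs rose between day 0 and day 3, while miR-17-5p, miR-20a-5p and miR-92a-3p of the miR-17-92 cluster and miR-221-3p and miR-222-3p fell. Of the 573 members, 88 were called higher at day 3 (15.4%) and 80 were called lower (14%). A call required a log2 fold change beyond 1 and a Benjamini-Hochberg adjusted p under 0.05 when the reads were tested by the exact binomial test (two-sided), which compares 2 libraries, not 2 conditions. The miRNAs called higher together held 5.05% of the reads at day 0 and 13.2% at day 3, and those called lower held 4.56% and 1.02%. Log2 fold changes were scaled with TMM factors from edgeR, which set the median of all members at -0.05. Folds carry the same factors, while CPM values are scaled to total reads alone, so ratios of CPM differ from the folds. Scaling to the total reads instead moved the median by -0.36, and 48 miRNAs were then called higher and 150 lower, so directions of small changes depend on the scaling. The brackets after log2 fold changes hold 95% Clopper-Pearson intervals. These reflect counting error alone. They may be too narrow even for that, because reads copied by PCR are not separate molecules.

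**Figure D1:**
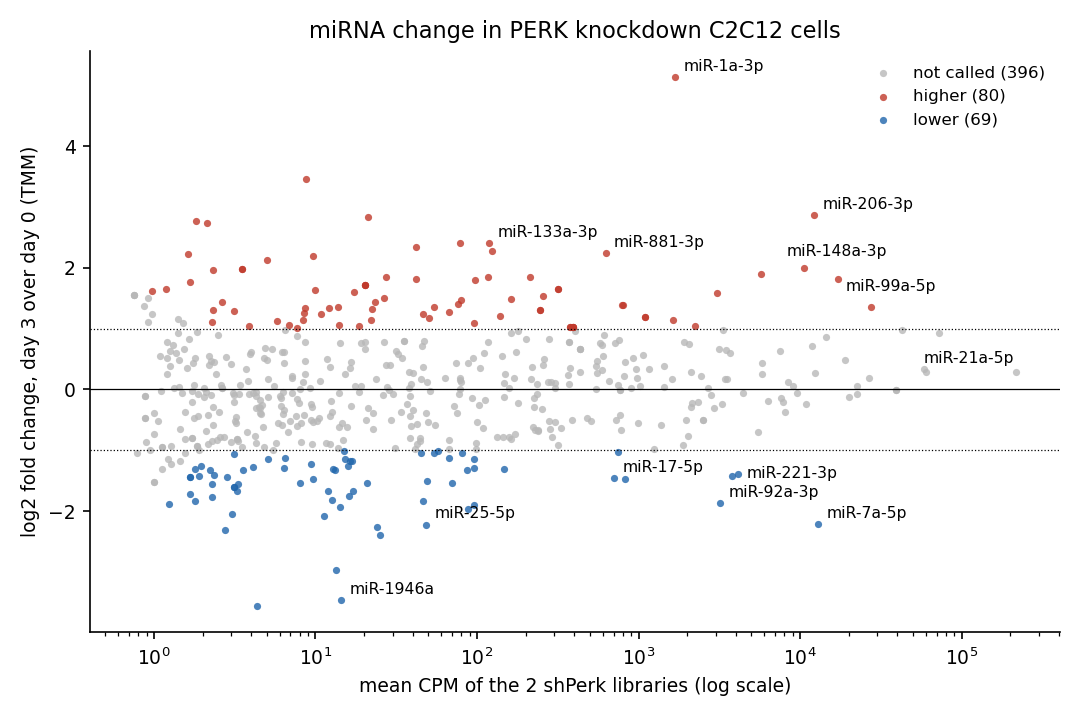
Log2 fold change of day 3 over day 0 in shPerk cells (vertical axis, TMM scaling) against the mean CPM of the 2 shPerk libraries (horizontal axis, log scale), 1 point per miRNA, for the 545 members with more than 3 reads in both libraries. Dotted lines mark log2 fold changes of -1 and 1, and miR-1a-3p stands above all other points at 5.13.

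miR-1a-3p and miR-206-3p gave the largest rises among members with a mean of at least 10 CPM. miR-1a-3p, which represses Hdac4 and other inhibitors of muscle differentiation, counted 1050 reads before induction and 30759 reads after 3 days in shPerk cells, or 119 and 3262 CPM. With TMM scaling this was a 35.1-fold rise, a log2 fold change of 5.13 (5.04 to 5.22). In shNC cells it counted 2487 and 207393 reads, with a log2 fold change of 6.56, so the rise in shPerk cells was smaller by 1.43 on the log2 scale (interval of the difference -1.54 to -1.33, counting error only). The day 3 level in shPerk cells was 18.9% of that in shNC cells at day 3, and it was far above the 220 CPM of shNC cells at day 0.

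miR-206-3p, the skeletal muscle-restricted miRNA that shares its seed with miR-1, counted 32128 reads before induction and 196072 reads after 3 days in shPerk cells. Its log2 fold change was 2.87 (2.85 to 2.89), a 7.30-fold rise with TMM scaling. In shNC cells the counts were 206961 and 802676 reads, with a log2 fold change of 2.14. The shPerk line started at 20.0% of the shNC level at day 0 and reached 20796 CPM at day 3, 114% of the shNC level before induction and 31.1% of their day 3 level. The difference between the rises was 0.73, inside the limit of 1 set for a call. The 5p arm of the same hairpin also rose, from 7.61 to 14.1 CPM, a log2 fold change of 1.25 (0.81 to 1.69) that dropped to 0.89 under total-count scaling.

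The miRNAs miR-133a and miR-133b, which act on SRF and proliferation of myoblasts, rose from a low base. miR-133a-3p counted 408 and 1806 reads in shPerk cells, with a log2 fold change of 2.40 (2.25 to 2.56), against 4750 and 39096 reads in shNC cells, which gave a log2 fold change of 3.22. For miR-133b-3p the counts were 198 and 581 reads in shPerk cells, with a log2 fold change of 1.81 (1.58 to 2.05), against 2789 and 12014 reads in shNC cells. After 3 days of differentiation, the shPerk level of miR-133a-3p was 45.7% of the shNC level before induction, and miR-133b-3p stood at 61.6 CPM against 246 CPM in shNC cells before induction. Both rises were smaller than in shNC cells, by 0.82 and 0.48, within the limit for a call. miR-133a-5p counted 16 and 148 reads in shPerk cells and 54 and 2734 reads in shNC cells, and its rise was called smaller in shPerk cells, by 2.38 on the log2 scale (-3.23 to -1.57). miR-133b-5p rose from 20 to 73 reads.

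All 7 of the 11 muscle miRNA names that passed the filter were called higher, with a median log2 fold change of 2.40, against 15.4% of all members. The remaining names, miR-1a-1-5p, miR-1a-2-5p, miR-1b-3p and miR-1b-5p, had at most 2 reads in either shPerk library. Where no read was counted, a level of at most 0.341 CPM at day 0 and 0.318 CPM at day 3 remains possible (3 reads). The summed level of the list rose from 3851 to 24350 CPM in shPerk cells and from 19214 to 88786 CPM in shNC cells. In shNC cells the median of the 8 tested names was 2.76, or 2.42 with counts under 3 reads set to 3. The difference between the lines was called lower in shPerk cells for 2 of these 8 names, miR-1a-3p and miR-133a-5p, against 10.1% of all miRNAs tested for it.

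**Figure D2:**
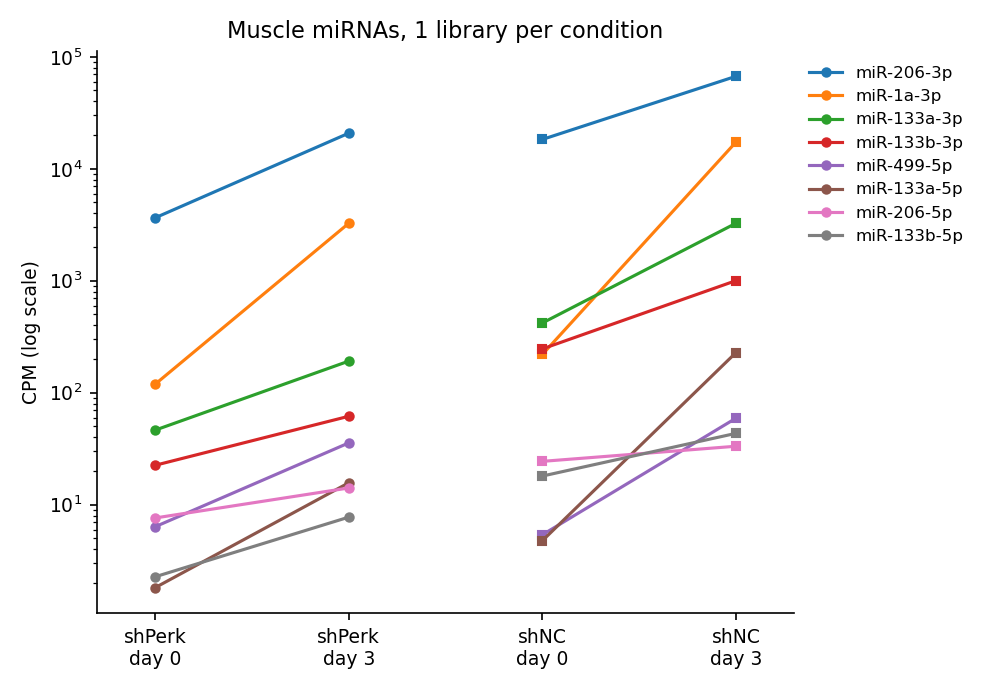
CPM (vertical axis, log scale) of the muscle miRNAs and miR-499-5p in the 4 libraries, circles for shPerk and squares for shNC cells, 1 library per point. All 8 miRNAs were higher at day 3 than at day 0 in both lines, and at day 3 all 8 were lower in shPerk than in shNC cells.

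miR-499-5p, which lies in an intron of the myosin heavy chain gene Myh7b (Mir499, GRCm38 chromosome 2, 155622880 to 155622958), counted 56 reads at day 0 and 336 reads at day 3. Its log2 fold change was 2.84 (2.43 to 3.28) in shPerk cells and 3.72 in shNC cells, which counted 61 and 710 reads. Its starting level was 6.36 CPM in shPerk and 5.39 CPM in shNC cells. The miRNAs of the Ank1 locus, miR-486a and miR-486b, were not called. miR-486a-5p and miR-486b-5p had identical counts, 7599 and 6332 reads, so their separate levels are uncertain.

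Mir206 and Mir133b lie side by side on chromosome 1 (GRCm38, 20679010 to 20682887, plus strand, both in exons of the lincRNA Gm28653), and all 4 of their mature miRNAs were called higher. miR-128-3p, a miRNA of muscle and brain, counted 15760 and 22089 reads in shPerk cells, which gave a log2 fold change of 0.75 (0.72 to 0.78) that was not called. In shNC cells it had 71475 and 130599 reads and a log2 fold change of 1.05. The difference between the lines, -0.31, was not called either. miR-128-1-5p counted 23 and 7 reads in shPerk cells (log2 fold change -1.44, interval -2.92 to -0.19), and miR-128-2-5p, with 0 and 4 reads, did not reach 1 CPM.

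The 12 largest rises among members with a mean of at least 10 CPM also held the neighbours miR-132-3p and miR-132-5p, from a locus known for its response to CREB. miR-132-3p counted 270 and 1190 reads, which gave a log2 fold change of 2.40 (2.21 to 2.59), and miR-132-5p 150 and 634 reads (log2 fold change 2.34, interval 2.08 to 2.61). The neighbouring Mir212 (GRCm38 chromosome 11, cluster from 75173388 to 75173747) gave miR-212-5p with 131 and 297 reads and miR-212-3p with 10 and 33 reads, and all 4 strands were called higher. In shNC cells miR-132-3p had a log2 fold change of 1.18 and miR-132-5p one of 0.80. The differences of 1.22 and 1.53 were called, so these rises were larger in shPerk cells.

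miR-148a-3p, whose family targets the DNA methyltransferase Dnmt1, counted 45125 and 149882 reads in shPerk cells, which gave a log2 fold change of 1.99 (1.98 to 2.01). In shNC cells it counted 6538 and 21323 reads and had nearly the same log2 fold change, 1.89, from a lower level (577 against 5127 CPM at day 0). The miRNAs that share its seed, miR-148b-3p (7041 and 8054 reads) and miR-152-3p (14471 and 20727 reads), had log2 fold changes of 0.45 and 0.78 and were not called. Its own 5p arm was not called in shPerk cells, with 394 and 306 reads, and rose in shNC cells, from 3.27 to 18.5 CPM. The difference for miR-148a-5p was -2.87 (-3.40 to -2.31) and was called.

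miR-218-5p, made from introns of Slit2 and Slit3 (Mir218-1, chromosome 5, 48223942 to 48224051; Mir218-2, chromosome 11, 35616816 to 35616925), counted 25625 and 79858 reads. Its log2 fold change was 1.90 (1.88 to 1.92) in shPerk and 2.32 in shNC cells, where it counted 2498 and 10996 reads. miR-181a-5p, known for a rise in differentiating myoblasts, counted 16171 and 40599 reads, which gave a log2 fold change of 1.59 in shPerk and 1.45 in shNC cells. Both rose in both lines, and for neither was the difference called.

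miR-99a-5p, from the Mir99ahg locus on chromosome 16 (Mir99a, 77598936 to 77599000), counted 80263 reads before induction and 236763 reads after 3 days in shPerk cells. In shNC cells it counted 74391 and 65551 reads. The log2 fold changes were 1.82 (1.81 to 1.83) and 0.00, and the difference of 1.82 was called. Its seed relatives miR-100-5p, with 32242 and 30332 reads, and miR-99b-5p, with 96852 and 77487 reads, had log2 fold changes of 0.17 and -0.06 in shPerk cells. As printed above, miR-99a-5p and miR-100-5p are near-identical in sequence, so their separate levels are uncertain.

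miR-455-5p, from a collagen gene intron, counted 458 and 1858 reads in shPerk cells and 1368 and 709 reads in shNC cells. Its log2 fold change was 2.28 (2.13 to 2.43) in shPerk and -0.77 in shNC cells, and the difference of 3.04 was the largest among those called higher with a mean of at least 10 CPM. miR-1843a-5p rose from 535 to 1618 reads (log2 fold change 1.86), and miR-1843b-3p from 126 to 379 reads, which gave a log2 fold change of 1.85. Mir1843a (chromosome 12, 80391613 to 80391677) overlaps the small Cajal body RNA gene Scarna3b on the same strand, so reads of both cannot be told apart in these counts.

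Among the 10 miRNAs with the most reads in the shPerk libraries, only miR-143-3p was called, with 161951 and 344914 reads and a log2 fold change of 1.35, or 0.99 under total-count scaling. miR-143 is a miRNA of smooth muscle and mesenchymal cells. miR-21a-5p, common in many cultured cells, counted 1944882 and 1992552 reads (log2 fold change 0.29). miR-26a-5p and miR-24-3p, both known to rise in myoblast differentiation, had log2 fold changes of 0.92 and 0.97 and stayed just inside the limit. let-7c-5p and let-7f-5p, of the let-7 family, had log2 fold changes of 0.28 and 0.34. miR-199a-3p and miR-199b-3p had identical counts in every library, so their separate levels are uncertain.

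Falls were counted in miRNAs known from dividing cells. In the list of the miR-17-92, miR-106b-25 and miR-106a-363 clusters, targets of Myc and E2F, 12 of 19 tested names were called lower and none higher, with a median log2 fold change of -1.14, against 14% of all members called lower. This count ranged from 10 to 15 over the 3 other scalings. miR-17-5p counted 9714 and 2957 reads in shPerk cells, which gave a log2 fold change of -1.46 (-1.52 to -1.40), and miR-20a-5p 11321 and 3421 reads (log2 fold change -1.47, interval -1.52 to -1.41). miR-92a-3p counted 46470 and 10633 reads, which gave a log2 fold change of -1.87 (-1.90 to -1.84). For miR-18a-5p, which fell, the counts were 667 and 156 reads. miR-19b-3p of the same cluster counted 3002 and 2554 reads (log2 fold change 0.03), and miR-19a-3p 775 and 536 reads, which gave a log2 fold change of -0.27, and neither was called.

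The cluster on chromosome 14 (GRCm38, 115043671 to 115044506, in exons of Mir17hg) had 6 of its 9 uniquely placed strands called lower, against 14% of all members. Its paralog in Mcm7 on chromosome 5 (138165321 to 138165818) had 3 of 6 called lower, with miR-25-5p at 731 and 131 reads (log2 fold change -2.22, interval -2.50 to -1.95). miR-93-5p counted 9558 and 3902 reads, which gave a log2 fold change of -1.03 that was inside the limit under DESeq2 size factors (-0.99). In shNC cells the median of the list was -0.60 over 20 names, with 6 called lower, against 14.2% of all miRNAs tested in that line. The difference was called lower in shPerk cells for 5 of 20 names (10.1% of all), among them miR-20a-5p (-1.13) and miR-93-5p (-1.13).

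Falls were shared within some seed groups. Of the 6 tested miRNAs with the seed AAAGUGC, 5 were called lower and the last, miR-106b-5p, had a log2 fold change of -0.78. Their reads summed to 32309 at day 0 and 11098 at day 3. Of the 4 with the seed AUUGCAC, miR-92a-3p and miR-92b-3p were called lower, while miR-25-3p counted 22251 and 13078 reads, which gave a log2 fold change of -0.51. In 16 seed groups with at least 3 tested members, 10 held at least 1 call and none held calls in both directions. Of all members, 15.4% were called higher and 14% lower, and the counts of seed groups were not tested.

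miR-221 and miR-222, which repress the cell cycle inhibitor Cdkn1b (p27), separated the lines. In shPerk cells miR-221-3p counted 56383 and 17946 reads (log2 fold change -1.39, interval -1.42 to -1.37), and miR-222-3p 51889 and 16133 reads, which gave a log2 fold change of -1.43 (-1.45 to -1.40). In shNC cells miR-221-3p counted 37796 and 52787 reads and miR-222-3p 25967 and 27884 reads, log2 fold changes of 0.66 and 0.29. The differences, -2.06 (-2.09 to -2.03) and -1.71 (-1.75 to -1.68), were called. Of the 4 strands of this pair of hairpins on the X chromosome (19146294 to 19146971), 3 were called lower in shPerk cells (2 under DESeq2 size factors) and none in shNC cells, against 14% and 14.2% of all miRNAs tested in each line. The shPerk line held more of both than the shNC line at day 0 (6406 against 3338 CPM for miR-221-3p) and less at day 3 (1903 against 4401 CPM).

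miR-7a-5p had the most reads of all miRNAs called lower, with 194960 and 35171 reads in shPerk cells (log2 fold change -2.21, interval -2.23 to -2.20). One of its genes, Mir7-1, lies in an intron of Hnrnpk. It fell in shNC cells too, from 472935 to 114498 reads, which gave a log2 fold change of -1.86, and the difference of -0.35 was not called. miR-7b-5p, with the same seed, counted 383 and 61 reads, which gave a log2 fold change of -2.39 in shPerk and -1.96 in shNC cells.

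The steepest falls among members with a mean of at least 10 CPM were those of miR-1946a, with 238 and 18 reads and a log2 fold change of -3.46 (-4.25 to -2.77), and miR-6539, with 216 and 23 reads and a log2 fold change of -2.97 (-3.66 to -2.35). Their intervals are wide, since few reads were left at day 3. miR-1946a fell in shNC cells as well, from 609 to 86 reads. miR-15b-3p, miR-182-3p, miR-1983, miR-92b-3p and miR-23a-5p complete the 12 largest falls, with log2 fold changes from -2.27 to -1.91. miR-23a-5p counted 168 and 33 reads in shPerk and 68 and 58 reads in shNC cells, and its difference of -2.04 was called.

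The list of miR-15, miR-16, miR-195 and miR-497, which act on cyclins and the G1 phase, held 10 tested names, of which 4 were called lower and 1 higher (median -0.87), against 14% and 15.4% of all members. The 4 were 3p strands, and miR-15b-3p counted 1396 and 311 reads and miR-16-1-3p 1246 and 469 reads. The main strand miR-16-5p counted 14010 and 11988 reads (log2 fold change 0.03). miR-195a-5p, with the same seed as miR-16-5p, rose, with 877 and 1692 reads and a log2 fold change of 1.21, or 0.85 under total-count scaling. The let-7 list, miRNAs known to rise as embryonic cells mature, had none of 20 tested names called, with a median of -0.50 and log2 fold changes from -0.98 to 0.34. With total-count scaling 4 of them were called lower and with upper quartile factors 2.

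**Figure D3:**
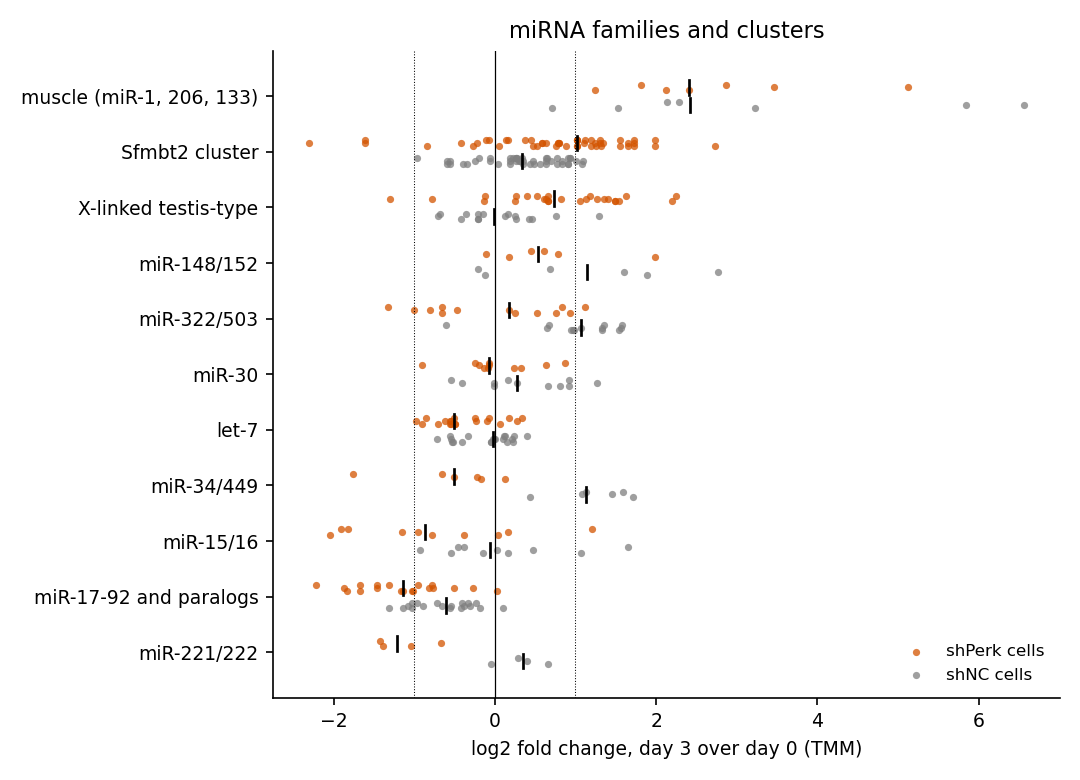
Log2 fold change of day 3 over day 0 (horizontal axis) for the tested members of 11 lists (rows), in shPerk cells (orange) and shNC cells (grey). Each point is 1 miRNA with more than 3 reads in both shPerk libraries, and grey points also needed more than 3 reads in both shNC libraries. Black bars are the medians of all tested members with counts under 3 reads set to 3. The shPerk median lies left of the shNC median in all rows but those of the Sfmbt2 and X-linked testis-type clusters. The gap is widest for miR-34 with miR-449, miR-221 with miR-222 and the miR-322 cluster, with ranges that overlap for the miR-322 cluster.

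Other lists held more names called higher in shNC than in shPerk cells. The cluster of miR-322 and miR-503 on the X chromosome, linked to cell cycle exit of myoblasts through Cdc25A, had no name called higher and 2 of 13 called lower in shPerk cells, a share near the 14% of all members, with a median of 0.17 that became -0.18 under total-count scaling. In shNC cells 6 of 13 were called higher (12% of all), with a median of 1.07. The difference was called lower for 6 of 13, against 10.1% of all. miR-503-5p counted 1970 and 939 reads in shPerk and 4590 and 10138 reads in shNC cells, log2 fold changes of -0.81 (-0.92 to -0.70) and 1.33. miR-351-5p counted 9154 and 4840 reads in shPerk and 20513 and 45297 reads in shNC cells, log2 fold changes of -0.66 (-0.71 to -0.61) and 1.33. Both differences, -2.14 and -1.99, were called. miR-322-3p, in contrast, counted 5416 and 7686 reads in shPerk cells, and its difference of -0.77 was not called.

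The list of miR-34, which is induced by p53, and miR-449 had 2 of 7 tested names called lower in shPerk cells (14% of all) and 5 called higher in shNC cells (12% of all). In shPerk cells miR-34c-5p counted 22622 and 16244 reads, which gave a log2 fold change of -0.22 (-0.25 to -0.19), and in shNC cells 12627 and 30350 reads (log2 fold change 1.45). The difference was called lower for 6 of the 7 tested names, against 10.1% of all, miR-34a-5p being the exception at -0.61. miR-449a-5p, in an intron of Cdc20b, counted 231 and 57 reads in shPerk and 55 and 146 reads in shNC cells. The list median was -0.50 in shPerk and 1.13 in shNC cells.

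miR-335, in an intron of the imprinted gene Mest (chromosome 6, 30741299 to 30741396), gave the largest difference of all with a mean of at least 10 CPM over the 4 libraries. miR-335-3p counted 168 and 44 reads in shPerk and 26 and 225 reads in shNC cells, log2 fold changes of -1.67 (-2.19 to -1.19) and 3.29. Its 5p arm counted 53 and 89 reads in shPerk and 11 and 143 reads in shNC cells, a 2.01-fold rise in shPerk cells and a log2 fold change of 3.87 in shNC cells, so the arms were called in opposite directions in shPerk cells. The rise of miR-335-5p lay at the limit of the call and was lost under total-count scaling. The counts are small in all 4 libraries.

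A pair of groups known from other tissues held many rises in the knockdown line. The X-linked testis-type miRNAs near Fmr1, a list chosen with earlier results of these libraries known, had 13 of 28 tested names called higher and 1 lower, against 15.4% and 14% of all members, with a median of 0.74. Under total-count scaling 8 were higher and 3 lower. miR-881-3p counted 2345 and 9275 reads in shPerk cells, which gave a log2 fold change of 2.24 (2.18 to 2.31), while shNC cells held 223 and 153 reads. miR-871-3p counted 1374 and 3333 reads in shPerk and 113 and 62 reads in shNC cells, with log2 fold changes of 1.54 and -0.68. The difference was called higher for 9 of 28 names (8.96% of all). The whole list summed to 148 and 117 CPM in shNC cells, against 2310 and 3902 CPM in shPerk cells. In the stretch from 66776757 to 66814025 of the X chromosome, 11 of 20 tested strands were called higher and 1 lower. The 3p strands of miR-465a, miR-465b and miR-465c had identical counts, 3425 and 4514 reads, and were not called. The list sum above holds these counts under each name. In shPerk cells they made up 10275 of its 20331 reads at day 0 and 13542 of its 36787 reads at day 3, so the summed level is uncertain.

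The miRNAs of a large cluster of near-copies in an intron of Sfmbt2 (miR-297a, miR-466a, miR-467a, miR-669a and relatives) had 24 of 52 tested names called higher and 3 lower, against 15.4% and 14% of all members, with a median of 1.02. These 52 names had only 39 distinct count profiles, since near-identical copies share reads, and their number is therefore uncertain. miR-467a-5p and miR-467b-5p both counted 6963 and 13288 reads (log2 fold change 1.19), and miR-669a-3p and miR-669o-3p both counted 1608 and 4224 reads, which gave a log2 fold change of 1.65. Many names sat close to the limit, and with total-count scaling 9 were called higher and 4 lower. In shNC cells the median was 0.34, with 3 of 46 called higher, against 12% of all miRNAs tested in that line. The difference was called higher for 6 and lower for 2 of 52, against 8.96% and 10.1% of all.

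The counts of the other lists stand against 15.4% of all members called higher and 14% called lower. The miR-30 list had none of 11 names called, and miR-30c-2-3p, which is induced downstream of PERK and represses Xbp1, counted 1099 and 773 reads in shPerk and 1152 and 1915 reads in shNC cells. The miR-30c-2-3p difference of -1.16 was called. The list of miR-23, miR-27 and miR-24 had 2 of 11 higher and 1 lower, miR-181 1 of 10 higher, miR-378 1 of 5 higher, miR-29 1 of 7 higher and 1 lower, and miR-26 with miR-101 2 of 8 higher and 1 lower. The list of miR-125, miR-99 and miR-100 had only miR-99a-5p called of 11, and the list of miR-199 with miR-214 none of 6. miR-101a-3p, which targets Ezh2, counted 4575 and 9995 reads (log2 fold change 1.39), and miR-101c had nearly the same counts (4613 and 10097 reads), so their separate levels are uncertain. The Hox cluster miRNAs had 1 of 7 higher, miR-10a-5p, with 317 and 678 reads in shPerk and 202 and 132 reads in shNC cells, and 1 lower, miR-196b-3p, with 15 and 2 reads. Of the 6 names of the H19, Igf2 and Mest hosts, 5 were tested, with 2 higher and 1 lower. Of the 7 names of the unfolded protein response list 3 were tested, with 1 higher, miR-708-3p, at 2 and 17 reads. In shNC cells miR-708-3p counted 3 and 18 reads, and 3 of 4 tested names of this list were called higher (12% of all). The difference was called lower in shPerk cells for 3 of 4 names, against 10.1% of all. Part of this count rests on few reads. miR-708-5p counted 19 and 21 reads in shPerk and 11 and 64 reads in shNC cells. miR-204-5p counted 5 and 1 reads in shPerk and 3 and 13 reads in shNC cells. It passed the filter of 1 CPM only through shNC cells at day 3, where it was highest. The imprinted Dlk1-Dio3 region had 2 of 109 names tested and none called.

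Markers of other cell types were counted in the same libraries. Of 14 pluripotency markers, from the clusters named for miR-290 and miR-302, all had 0 reads in both shPerk libraries. The blood markers summed to 2796 and 2487 CPM in shPerk and 596 and 702 CPM in shNC cells, 6 of 9 reaching 1 CPM in shPerk cells, with miR-223-3p at 0 and 1 reads. Most of this sum was miR-146b-5p, with 19027 and 19291 reads. The neural markers summed to 2651 and 4069 CPM in shPerk and 181 and 559 CPM in shNC cells, almost all of it miR-9-5p, with 23241 and 38128 reads, while miR-124-3p had 0 reads. The epithelial markers summed to 6430 and 4603 CPM in shPerk and 19546 and 7812 CPM in shNC cells, mostly miR-182-5p, miR-183-5p and miR-96-5p. The rest of this list was near the floor. In the shPerk libraries miR-200a-3p counted 7 and 9 reads, miR-200b-3p 9 and 7 reads, and miR-200c-3p 24 and 6 reads. miR-141-3p had 0 reads in both. Endothelial markers stayed between 86.5 and 92.3 CPM in the 4 libraries. Liver and islet markers fell from 50.7 to 9.44 CPM in shPerk and from 92.7 to 21.8 CPM in shNC cells, mostly miR-7b-5p. All 4 skeletal muscle markers were present in every library. The part of other cell types in the changes was not tested, and in bulk RNA fewer cells of a type and less RNA per cell cannot be told apart.

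The knockdown and control pairs share no library, so their changes can be set side by side. In shNC cells, 593 miRNAs were tested, of which 71 were called higher (12%) and 84 lower (14.2%). Across the 541 miRNAs tested in both pairs, the log2 fold changes had a Pearson r of 0.53 and a Spearman rho of 0.48, given as a description, since miRNAs do not vary independently of each other. Of the miRNAs called higher, 22 were shared, 25% of those higher in shPerk and 31.0% of those higher in shNC cells. Of those called lower, 25 were shared, 31.2% of the shPerk and 29.8% of the shNC calls. The miRNAs called higher in shNC cells had a median of 0.71 in shPerk cells over the 62 that were tested there, and those called lower in shNC cells a median of -0.90 over 69.

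The difference between the changes was tested on the reads of the 4 libraries for 625 miRNAs. In it 56 (8.96%) were called higher and 63 (10.1%) lower in shPerk than in shNC cells. This test also rests on counting error alone. The 6 largest called lower with a mean of at least 10 CPM over the 4 libraries were miR-335-3p, miR-449a-5p, miR-148a-5p, miR-3963, miR-142a-3p and miR-133a-5p, with differences from -4.96 to -2.38. The 6 largest called higher were miR-455-5p, miR-881-3p, miR-1981-5p, miR-871-3p, miR-129-5p and miR-880-3p, with differences from 1.98 to 3.04. For miR-129-5p the shPerk counts, 140 and 90 reads, changed little, and the difference came with a fall from 3774 to 646 reads in shNC cells.

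**Figure D4:**
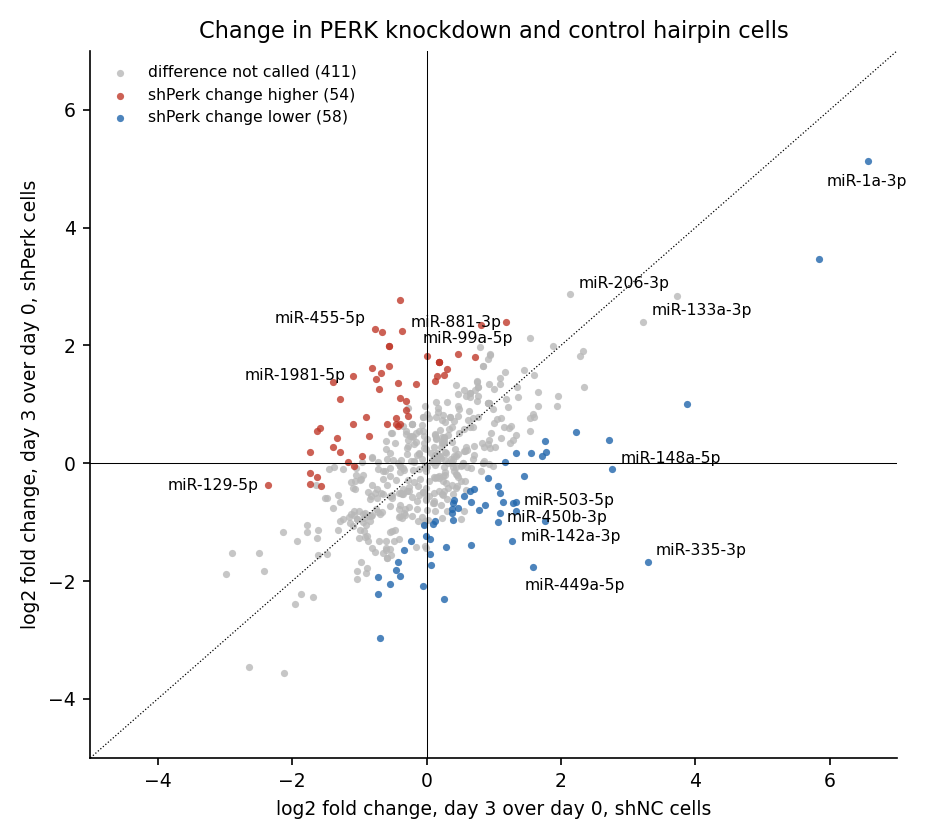
Log2 fold change of day 3 over day 0 in shPerk cells (vertical axis) against that in shNC cells (horizontal axis), 1 point per miRNA, for the 523 miRNAs tested in both with more than 3 reads in all 4 libraries. The dotted line marks equal change, and points are coloured where the difference was called (54 higher, 58 lower in shPerk cells).

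The arms of a hairpin come from 1 precursor, and they were not used to choose the members. Of 83 hairpins with both arms at a mean of at least 10 CPM, 56 had both arms on the same side of 0, and across them the log2 fold changes of the arms had a Pearson r of 0.66. In 12 hairpins both arms were called the same way and in none were they called in opposite directions. The largest gaps were those of miR-182, with -0.09 for the 5p and -2.27 for the 3p arm, and miR-148a, with -0.11 and 1.99. miR-21a-3p fell, with 675 and 199 reads and a log2 fold change of -1.50, while miR-21a-5p was at 0.29. miR-25-5p fell by 2.22 on the log2 scale, while miR-25-3p, at -0.51, was not called.

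**Figure D5:**
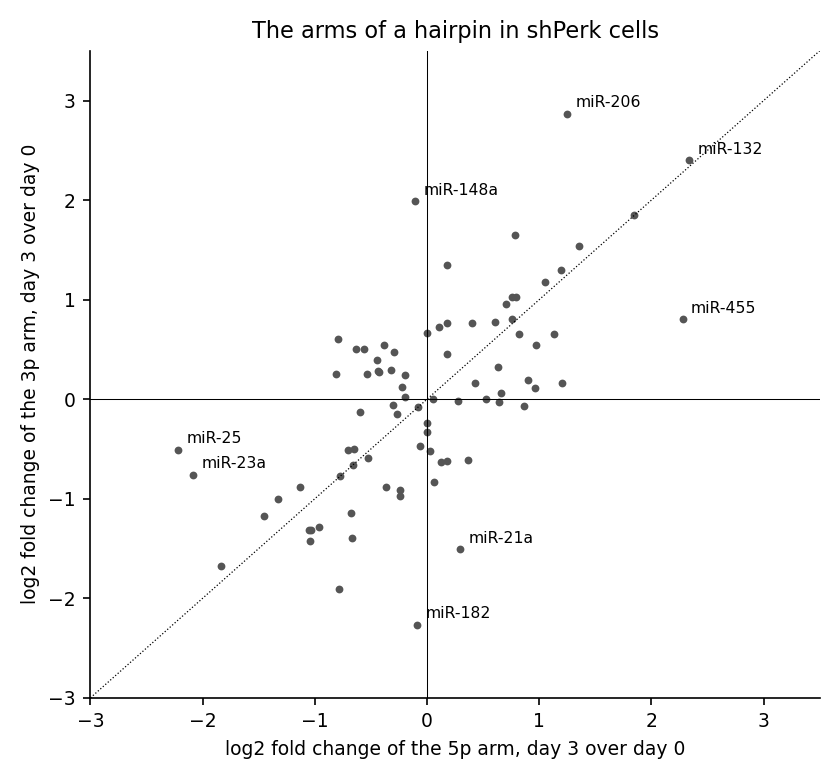
Log2 fold change of day 3 over day 0 in shPerk cells for the 3p arm (vertical axis) against the 5p arm (horizontal axis), 1 point per hairpin, for the 83 hairpins with both arms at a mean of at least 10 CPM. The dotted line marks equal change, and miR-182, miR-148a, miR-21a and miR-25 lie farthest from it.

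Genome position is given as a description, beside 15.4% of all members called higher and 14% called lower. Genes of tested miRNAs formed 34 clusters with neighbours on the same strand within 10 kb. Of these clusters, 21 held at least 1 called strand, a count that was not tested. Only 2 of them held calls in both directions, the X-linked cluster above and the cluster of miR-23a and miR-24-2 on chromosome 8, where miR-24-2-5p rose, with 15155 and 26141 reads and a log2 fold change of 1.05, and miR-23a-5p fell. The cluster of miR-130b and miR-301b on chromosome 16 had 2 of 3 strands called lower, and that of miR-15b and miR-16-2 in Smc4 on chromosome 3 had 2 of 3. miR-130b-5p counted 966 and 277 reads. A RefSeq sequence was held for 58 of the 88 miRNAs called higher and 71 of the 80 called lower. The shares that follow therefore leave out more of those called higher. In sequence, the 58 called higher began with U in 53.4% of cases and the 71 called lower in 28.2%, against 42.2% of all 469. The median GC content was 45.5% for those called higher, 50% for those called lower and 47.8% for all. Among the miRNAs with a sequence, genes on the X chromosome alone made 25.9% of those called higher, 12.7% of those called lower and 16.2% of all. Of the 15 X-linked miRNAs called higher, 13 belong to the testis-type list described above, so this share is not a separate result.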

How the data were processed

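Small RNA libraries of C2C12 cells were made by a company, which joined linkers at each RNA end, made cDNA, amplified by PCR, selected the product on a gel and annotated reads with bowtie. The submitters' processing notes name mm10 and GRCm38. Neither the bowtie version nor the release of the miRNA annotation nor the treatment of reads with several matches is given in the sources used here. The authors deposited raw counts of reads on each mature miRNA, which were used without change. The fold change and p-value columns of the deposited tables hold the authors' own comparisons and were not used. The ATF4 and P19 libraries were not analysed here.

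The shPerk_D3 and shPerk_D0 counts were joined by miRNA name, and all columns were assigned to a sample by their labels. A level of 1 CPM or more in either library was required. TMM factors were computed for each pair (edgeR 4.0.16, R 4.3.3), and log2 fold changes used a prior count of 0.125. With 1 library per condition no replicate model was fitted. Calls needed a log2 fold change beyond 1 together with an adjusted p under 0.05 from the exact binomial test (two-sided, scipy 1.17.1). The difference between the shPerk and shNC changes was tested with a normal approximation to the counting error of the 4 log counts, with 0.5 added to each count. No fold is given where a library held 3 reads or fewer. The calling step was tested on simulated data drawn with counting error alone, which cannot test how calls hold up against spread between libraries.

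Named miRNAs were the 12 largest called rises and the 12 largest called falls at a mean of at least 10 CPM, the 10 with the most reads, the 6 largest called differences either way (mean of 10 CPM or more over the 4 libraries), list members with a mean of at least 50 CPM, and all arms of the muscle miRNAs and miR-128. Further names (the miR-212 strands, miR-130b-5p, miR-21a-3p, miR-335-5p, miR-196b-3p and miR-708-3p) were chosen after their values were seen. The members and the 32 lists were chosen with earlier results of these data known. Positions and host genes come from the GRCm38 annotation, sequences from RefSeq. Alternatives were other scalings (DESeq2 1.42.0, upper quartile and total), filters, prior counts and assumed variation.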

Additional observations from a re-analysis of the deposited data

Results flagged for a closer look

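Changes in opposite directions in the PERK knockdown and control cells were found for 5 miRNAs that were called in both pairs. The differences were tested on the reads of 4 single libraries, so they have no replicate check. miR-335-3p fell from 168 to 44 reads in shPerk cells and rose from 26 to 225 reads in shNC cells, a difference of -4.96 on the log2 scale (-5.68 to -4.18). miR-449a-5p fell from 231 to 57 reads and rose from 55 to 146 reads, a difference of -3.35 (-3.94 to -2.72). miR-142a-3p, a miRNA of blood cells, fell from 1977 to 665 reads and rose from 28 to 60 reads, a difference of -2.59 (-3.24 to -1.93). miR-1981-5p, in an intron of Marc2, rose from 440 to 1023 reads and fell from 1542 to 638 reads, a difference of 2.57 (2.36 to 2.77). miR-450b-3p fell from 730 to 304 reads and rose from 978 to 1806 reads, a difference of -2.07 (-2.29 to -1.85), and its call in shPerk cells was lost under DESeq2 size factors, with a log2 fold change of -0.96.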

How the results depend on the processing

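No paired analysis was possible because each condition had 1 library. The counts of 88 miRNAs called higher and 80 lower depended most on the spread assumed between libraries. With edgeR's exact test, 82 and 72 were called at an assumed coefficient of variation of 0.1, 60 and 43 at 0.2, and 1 and 0 at 0.4. The 1 called at 0.4 was miR-1a-3p. Scaling to total reads gave 48 higher and 150 lower, a share of 24.2% higher against 52.4%, and a mean of at least 10 CPM left 326 miRNAs, 56 higher and 39 lower. Over the other alternatives (DESeq2 size factors, upper quartile factors, no filter, the fold limit alone, identical counts collapsed, a prior count of 2) the counts stayed within 73 to 97 higher and 67 to 98 lower. For the difference between the lines (56 higher and 63 lower), the likelihood ratio test at an assumed coefficient of 0.2 called 10 higher and 14 lower, at 0.1 44 and 57, and at 0.4 it called 0 and 0. Other scalings gave 49 to 61 higher and 57 to 75 lower.

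No called change of a named miRNA turned direction under another scaling. The medians of small size did: under total-count scaling those of miR-378 (-0.0249), miR-26 and miR-101 (-0.0790), the miR-322 cluster (-0.18), miR-23, miR-27 and miR-24 (-0.0878), miR-181 (-0.16), miR-199 with miR-214 (-0.24), the Hox miRNAs (-0.11), the H19, Igf2 and Mest hosts (-0.33), and the blood (-0.16) and endothelial (-0.11) markers fell below 0. The H19, Igf2 and Mest median was -0.0903 with upper quartile factors, and that of miR-486 with miR-499 was 0.0417 with DESeq2 size factors. Setting counts under 3 reads to 3, added after seeing the data, turned no list median. With 3 reads as the floor, 28 members had too few reads in 1 library for a fold, 19 of them called.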
